A study of Arabidopsis thaliana with 8 samples.

Results

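Polysome loading in unstressed seedlings was taken as the log2 value of polysome-bound (PB) mRNA minus that of total (TOT) mRNA, probe set by probe set, on the 4 arrays of the series made at 22 °C, out of 8 arrays in all. The arrays are 2 of PB mRNA and 2 of TOT mRNA from Arabidopsis thaliana seedlings of ecotype Columbia-0, wild type, 7 days old, taken straight from the growth chamber. The PB RNA was purified from the heavy, polysomal fractions of a sucrose gradient. The TOT RNA came from the crude extract of the same seedling sample before it was loaded on the gradient, so that replicate 1 and replicate 2 are each a pair. The remaining 4 arrays, PB and TOT mRNA of seedlings held at 38 °C for 45 min, gave 2 further pairs, which entered the fit only to measure the spread between pairs and are otherwise quoted beside the values at 22 °C. Whole seedlings were used, so tissues are mixed in every array, and fewer cells of a type cannot be told apart from less mRNA per cell.

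An mRNA that is being translated usually carries several ribosomes at once, and such polysomes sediment far into a sucrose gradient, away from free mRNA and single ribosomes. The share of an mRNA found in polysomes depends on how often ribosomes start on it, how fast they move and how long the coding sequence is. Chloroplasts and mitochondria translate the genes of their own genomes on separate, bacterial-type ribosomes, whereas all nuclear genes are read in the cytosol.

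The values are log2 signals on the ATH-1 array, brought to a common distribution by robust multi-array averaging (RMA). A difference of 0 therefore marks an mRNA with the average loading of the array, and the absolute share of an mRNA in polysomes is not measured. Annotated shoot mRNAs were bright in both fractions, as Rubisco activase (RCA) shows with 13.98 and 14.18 in PB mRNA, against 14.00 and 14.25 in TOT mRNA. No root, seed or heat marker drawn up for the check had a named probe set here.

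Most mRNAs had nearly the same level in both fractions. Over 22810 probe sets the quartiles of the log2 differences were -0.14 and 0.14, and the extremes were -3.42 and 1.31. The distribution had a longer tail on the side of poor loading. At an adjusted p under 0.05, 846 probe sets (3.71%) were higher and 1087 (4.77%) were lower in PB than in TOT mRNA, by limma with the seedling sample as block and Benjamini-Hochberg adjustment. Of these, 8 (0.0351%) were higher and 156 (0.684%) were lower by at least 2-fold. All 8 and all 156 had the same sign in both pairs, a condition close to the test itself.

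The differences of the 2 pairs had an r of 0.63 across all probe sets and of 0.77 across the 12230 probe sets whose brighter fraction averaged at least 6 on the log2 scale. Below 6 the r was 0.35. These are descriptions across probe sets that share arrays. Leaving out 1 seedling sample at 22 °C leaves 1 pair, whose own spread cannot be estimated. The spread would then come from the heat-stressed pairs alone, so only effect sizes are quoted for that setting. The calls rest on the spread of all 8 arrays. With the 4 arrays at 22 °C alone, in pairs, no probe set passed the adjusted threshold by limma, while 2453 were higher and 2673 were lower at an unadjusted p under 0.05. The fit of all 8 arrays without pairing also gave 0 adjusted calls, with 826 higher and 1147 lower at an unadjusted p under 0.05. Leaving out either heat-stressed pair had the same outcome as the 4 arrays alone, since the pair that is left then adds no estimate of the spread.

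**Figure D1:**
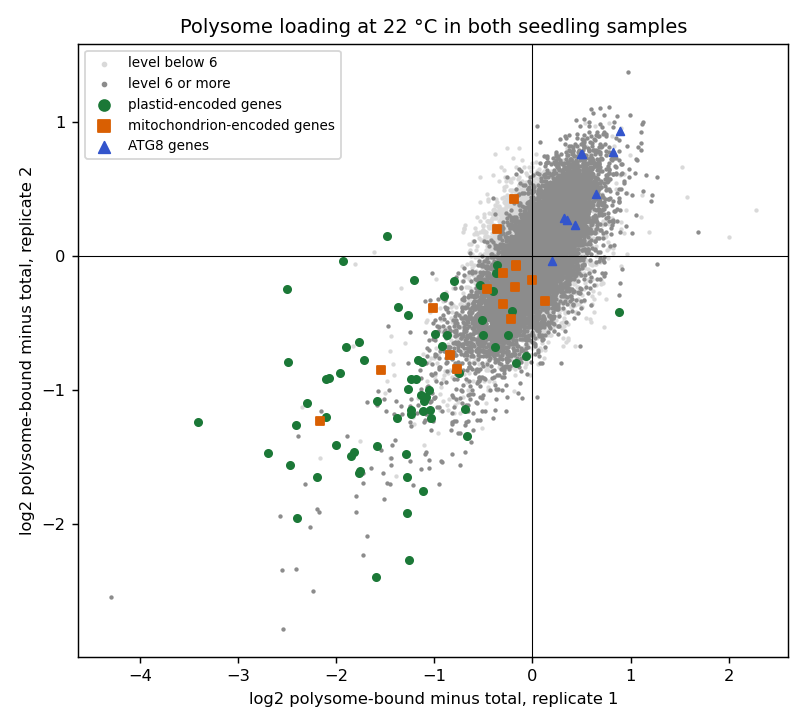
Log2 PB minus TOT at 22 °C in replicate 1 (x axis) and replicate 2 (y axis), 1 point per probe set, with plastid-encoded, mitochondrion-encoded and ATG8 genes marked by 1 probe set per gene. The cloud is centred on 0, and 67 of the 69 plastid-encoded genes lie below 0 on both axes, many of them in the tail to the lower left.

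Among the gene lists drawn up, the plastid-encoded mRNAs and their subgroups had the lowest medians. Of 69 plastid genes with a probe set of their own, 61 of them at a level of at least 6, 53 were lower and 0 were higher in PB mRNA at the adjusted threshold. The share lower was 76.8%, against 4.77% over all probe sets. Their median log2 difference was -1.12, against 0.00 over all probe sets, and 67 of 69 were lower in both pairs. By pair the median was -1.24 in replicate 1 and -0.92 in replicate 2. The group's median level was 8.89 and 7.68 in PB mRNA, against 10.16 and 8.86 in TOT mRNA, so that replicate 1 was the brighter one in both fractions. With arrays scaled to the spike-in controls, 49 were lower and 0 higher.

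The mRNA of psbA, which encodes the D1 protein of the photosystem II reaction centre, had 7.29 and 7.11 in PB mRNA, against 9.76 and 8.67 in TOT mRNA. Both PB values lay below both TOT values. The log2 difference was -2.02 ± 0.23 (limma SE), a 4.04-fold lower value, with an adjusted p of 0.001492 by limma. By pair it was -2.47 in replicate 1 and -1.56 in replicate 2. For psbH, a small subunit of photosystem II, the values were 7.96 and 5.79 in PB mRNA, against 9.56 and 8.18 in TOT mRNA, a 3.99-fold lower value in PB mRNA (adjusted p of 0.0002797). The replicates of psbH differed by over 1 log2 unit within each fraction. The pairing removed only part of this, as the log2 differences were -1.60 in replicate 1 and -2.39 in replicate 2. Of 20 photosystem genes in all, 16 were lower, with a median of -1.11. The member psaA, a core protein of photosystem I, had 7.81 and 4.79 in PB mRNA, against 6.93 and 5.21 in TOT mRNA, a difference of 0.23 with opposite signs in the 2 pairs. It was one of the 2 plastid genes that were not lower in both pairs, the other being rpoB.

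Genes of the remaining photosynthetic complexes differed among themselves. In the cytochrome b6f complex, which passes electrons between the photosystems, 4 of 6 genes were lower and the median was -1.41. Its petB mRNA, for cytochrome b6, had 11.22 and 9.72 in PB mRNA, against 12.48 and 11.99 in TOT mRNA, a log2 difference of -1.77 (adjusted p of 0.001159). The petA mRNA, for cytochrome f, was lower by less, with a log2 difference of -1.06 (adjusted p of 0.003041). In the ATP synthase, 4 of 6 genes were lower. Its atpI, atpH and atpF mRNAs, for subunits of the membrane part, had log2 differences of -1.60, -1.49 and -1.09 and passed the test. The adjacent genes atpB and atpE, for subunits of the catalytic part, had -0.33 and -0.25 and did not pass (adjusted p of 0.1125 and 0.2539). These were the 2 brightest plastid mRNAs, atpB with 13.51 and 13.30 in PB mRNA, against 13.91 and 13.56 in TOT mRNA, and atpE with 13.55 and 13.44 in PB mRNA, against 13.92 and 13.57 in TOT mRNA. The NDH complex, a plastid NAD(P)H dehydrogenase-like complex, had 7 of 10 genes lower and a median of -0.95, with ndhE at -1.83 and ndhI at -0.31. A test of these differences between genes was not run. Probe sets differ in hybridisation, and neighbouring plastid genes share transcripts, so the members are not independent of each other.

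Among plastid genes for the expression machinery, those for ribosomal proteins and for the RNA polymerase had different medians. Of 15 genes for plastid ribosomal proteins, 12 were lower, with a median of -1.13. The mRNA of rpl32 had 9.25 and 9.50 in PB mRNA, against 11.45 and 11.15 in TOT mRNA. Its log2 difference was -1.92 ± 0.15 (limma SE, adjusted p of 0.0001884). The rps4 mRNA had 11.06 and 10.58 in PB mRNA, against 12.83 and 12.20 in TOT mRNA (log2 difference of -1.70, adjusted p of 0.0002567). In both genes, which were picked for their large differences, the PB and TOT values did not overlap. Of the 4 genes for the plastid RNA polymerase, with a median of -0.60, rpoC1 and rpoC2 were lower (log2 differences of -1.20 and -0.55), while rpoA and rpoB had -0.42 and -0.67 and did not pass.

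All 8 other plastid genes were lower, with a median of -1.66. The mRNA of clpP, the proteolytic subunit of the plastid Clp protease, had 9.31 and 8.40 in PB mRNA, against 11.71 and 10.35 in TOT mRNA. This 4.52-fold lower value (log2 -2.17 ± 0.13, limma SE, adjusted p of 5.616e-05) was the largest among plastid genes at a level of at least 6. The matK, ycf3, ccsA and accD mRNAs, for an intron maturase, a photosystem I assembly factor, a cytochrome c assembly factor and a subunit of acetyl-CoA carboxylase, had log2 differences between -1.71 and -1.64. The mRNA of rbcL, the large subunit of Rubisco, was lower by less, with 9.53 and 8.78 in PB mRNA, against 10.66 and 9.57 in TOT mRNA (log2 difference of -0.96, adjusted p of 0.003782).

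**Figure D2:**
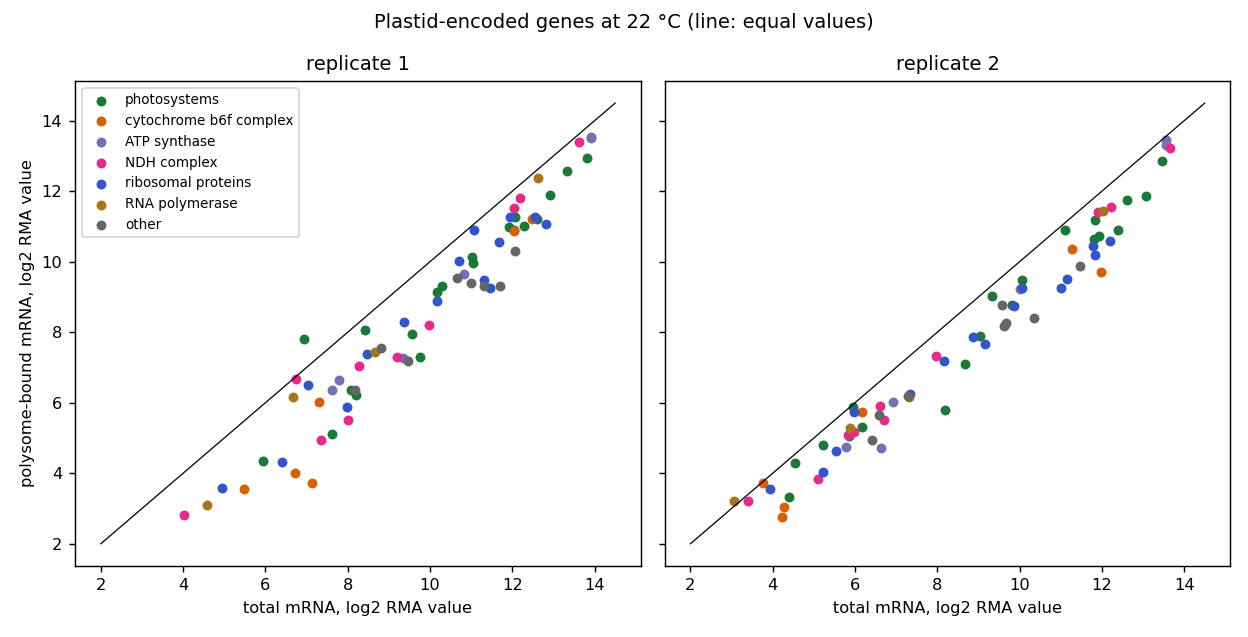
PB mRNA (y axis) against TOT mRNA (x axis) at 22 °C, log2 RMA values, for the 69 plastid-encoded genes in replicate 1 (left) and replicate 2 (right), coloured by complex. Nearly all points lie below the line of equal values, and a few of the brightest, such as atpB, atpE and ndhI, lie close to it.

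After heat the plastid genes were also low in PB mRNA, with a median of -0.79 at 38 °C. For 1 of the 69, psaB, a core protein of photosystem I, the loading differed between 38 °C and 22 °C at an adjusted p under 0.05, a threshold that 1.36% of all probe sets passed. Its mRNA had 12.57 and 11.75 in PB mRNA, against 13.32 and 12.62 in TOT mRNA at 22 °C (log2 difference of -0.81), and a difference of 0.01 at 38 °C. The array's control probe set for cytosolic large-subunit rRNA had the lowest difference of all, with 6.83 and 6.46 in PB RNA, against 11.13 and 9.00 in TOT RNA (log2 difference of -3.42). The methods do not state how RNA was primed for labelling. Whether the low values of this rRNA and of plastid and mitochondrial mRNAs reflect ribosome loading was not tested.

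Mitochondrion-encoded mRNAs were dimmer and changed less uniformly. Of 16 genes, only ccb382 reached a level of 6, and 5 were lower and 0 higher, with a median of -0.27. The share lower was 31.2%, against 4.77% over all probe sets. The ccb382 mRNA, for a protein of cytochrome c maturation, had 6.71 and 6.38 in PB mRNA, against 8.88 and 7.61 in TOT mRNA. Its log2 difference was -1.70 ± 0.21 (limma SE, adjusted p of 0.002319). The cox1 mRNA, for a core subunit of cytochrome c oxidase, had 4.67 and 4.56 in PB mRNA, against 6.21 and 5.41 in TOT mRNA (log2 difference of -1.20, adjusted p of 0.002825). These PB values lie near the dim end of the arrays. The other 3 genes past the threshold, ccb452, nad4 and cox2, had log2 differences between -0.80 and -0.70.

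Nuclear genes for the photosystems and for carbon fixation lay near the array average. The 10 nuclear genes for light-harvesting and photosystem proteins, all at a level of at least 6, had a median of 0.02. PSAE-1, a subunit of photosystem I, had 13.96 and 14.02 in PB mRNA, against 13.84 and 13.94 in TOT mRNA (log2 difference of 0.10, adjusted p of 0.6573). The only member past the threshold was LHCB4.3, a minor light-harvesting protein, at 0.44 (adjusted p of 0.04929). Rubisco activase, phosphoribulokinase and sedoheptulose bisphosphatase of the carbon fixation cycle had log2 differences of -0.04, -0.09 and -0.17, none called.

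Of the 112 probe sets of 1 gene that were lower by at least 2-fold, 67 belonged to nuclear genes, 65 of them protein-coding and 2 pseudogenes, and 42 to plastid genes. For 3, the mitochondrial ccb382 and cox1 and the gene AT1G80800, the table used for positions gave no chromosome. The 67 nuclear probe sets had a median of -1.24. In the heat-stressed seedlings, which are other samples, their median was -1.03, all 67 were below 0 in both pairs, and 27 were past 2-fold in both pairs. These heat-stressed pairs also entered the spread behind the calls, so the counts are not independent of them. The loading of 4 of the 67 probe sets differed between the temperatures at an adjusted p under 0.05.

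The lowest named nuclear genes were only partly annotated. The mRNA of AT3G27340 had 5.07 and 5.07 in PB mRNA, against 7.48 and 7.40 in TOT mRNA. Its log2 difference was -2.37 ± 0.14 (limma SE), a 5.17-fold lower value (adjusted p of 5.616e-05). DI19, whose symbol stands for drought-induced, was bright in the total fraction and much lower in polysomes, with 9.61 and 9.93 in PB mRNA, against 11.81 and 11.82 in TOT mRNA. Its log2 difference was -2.05 ± 0.12 (limma SE, adjusted p of 5.616e-05) at 22 °C and -2.10 at 38 °C. DI21, another gene annotated as drought-induced, had 7.26 and 7.34 in PB mRNA, against 9.58 and 9.04 in TOT mRNA (log2 difference of -2.01, adjusted p of 0.0001832), and -2.27 at 38 °C. The groups did not overlap in any of these genes, which were picked for their large differences. AT5G47435, AT1G53030, AT5G43150 and AT4G32240, which carry no other name in the tables used, had log2 differences of -2.05, -1.98, -1.86 and -1.80. AT1G80800, which has no other name and no chromosome given, had -2.26. The pseudogene AT1G35612 had 5.30 and 5.29 in PB mRNA, against 6.99 and 7.38 in TOT mRNA (log2 difference of -1.89, adjusted p of 0.0001819). Over all 989 annotated pseudogenes, most of them dim, 10 were lower (1.01%, against 4.77% of all probe sets) and 0 were higher, and the median was 0.02.

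On the other side, few mRNAs were enriched by much. Of the 8 probe sets higher by at least 2-fold, 4 had 1 gene listed. NRPB9B, a small subunit of RNA polymerase II, had 7.80 and 7.71 in PB mRNA, against 6.69 and 6.79 in TOT mRNA. Its log2 difference was 1.02 ± 0.11 (limma SE, adjusted p of 0.0012). AT2G32220 had 8.67 and 8.20 in PB mRNA, against 7.54 and 7.20 in TOT mRNA (log2 difference of 1.07, adjusted p of 0.002433). AT1G73630 and AT2G42110 had log2 differences of 1.05 and 1.02. In all 4 genes, which were picked for a difference of at least 2-fold, both PB values lay above both TOT values. The next 11 genes, given as values since they missed 2-fold, had log2 differences between 0.84 and 0.95 with adjusted p between 0.002479 and 0.01692. They were AT2G25720, AT3G15357, AT5G25450, ATG8H, AT4G37090, AT2G31725, AT3G09480, AT5G55570, AT2G24970, AT4G34290 and AT4G39675, of which only ATG8H has a descriptive name in the tables used.

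**Figure D3:**
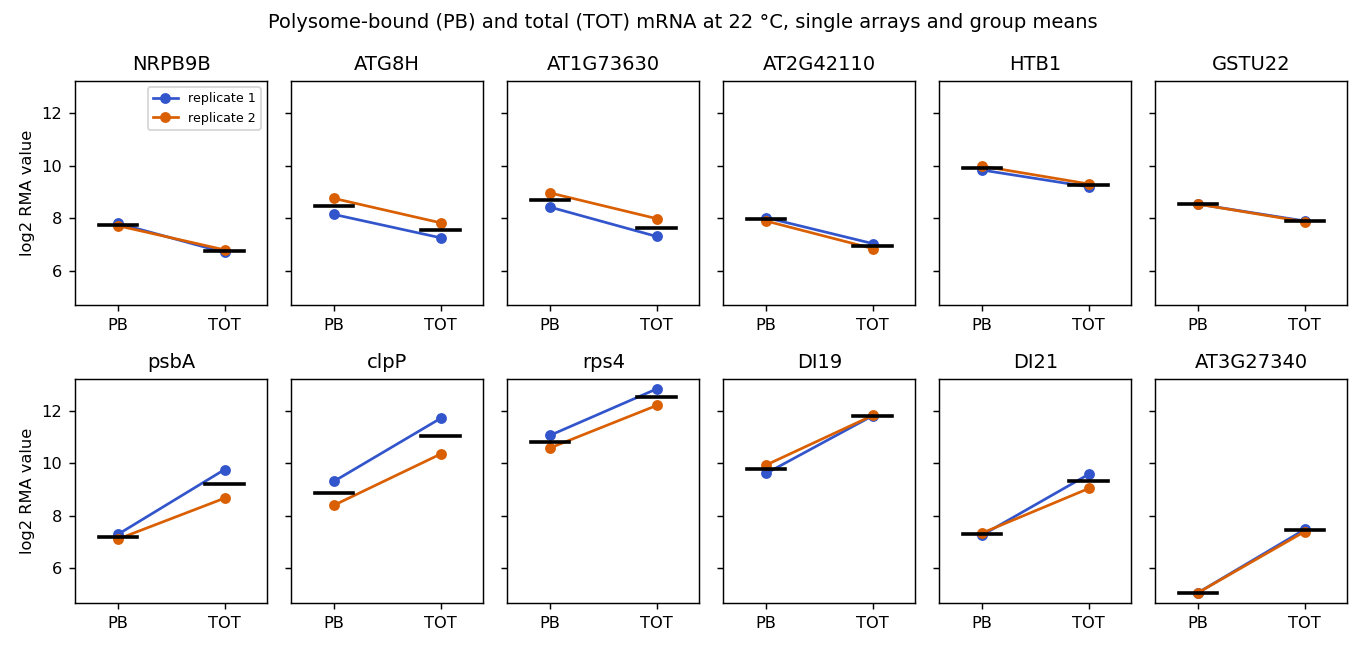
Log2 RMA values of PB (left) and TOT (right) mRNA at 22 °C for 12 genes, with a line for each seedling sample and a black bar for each group mean. The upper row holds genes higher in PB mRNA, with log2 differences between 0.66 (GSTU22) and 1.05 (AT1G73630), and the lower row holds genes lower in PB mRNA, with differences between -2.37 (AT3G27340) and -1.70 (rps4).

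Genes for ATG8, the ubiquitin-like protein that is attached to autophagosome membranes, leaned towards higher loading. All 9 were at a level of at least 6, 5 were higher and 0 lower, the median was 0.56, and 8 were higher in both pairs. Over all probe sets 3.71% were higher, and 7293 of 22810 were above 0 in both pairs. Among nuclear genes in the class of genomic span where the median of this list (1790 bp) lies, 10.4% were higher. ATG8H had 8.14 and 8.75 in PB mRNA, against 7.25 and 7.82 in TOT mRNA (log2 difference of 0.91 ± 0.13, limma SE, adjusted p of 0.005227). ATG8G, ATG8E, ATG8D and APG8A had log2 differences of 0.80, 0.63, 0.63 and 0.56. The brightest member, ATG8F, had 10.84 and 10.94 in PB mRNA, against 10.52 and 10.66 in TOT mRNA (log2 difference of 0.30, adjusted p of 0.1226). The median of the 9 was 0.78 at 38 °C. With arrays scaled to the spike-in controls 1 member passed, and the median stayed between 0.46 and 0.59 under every alternative tried.

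Genes of the ESCRT-III complex and its partners, which bend and cut membranes at endosomes, had a median of 0.40. Of 10 genes, 9 at a level of at least 6, 4 were higher, 0 were lower and 9 were higher in both pairs. The share higher was 3.71% over all probe sets and 10.4% in the span class of the list's median (1905 bp). VPS60.1 had 7.84 and 7.93 in PB mRNA, against 7.35 and 7.10 in TOT mRNA (log2 difference of 0.66, adjusted p of 0.01471), and the other 3 genes past the threshold were VPS60.2, VPS2.2 and VPS46.2 with log2 differences between 0.42 and 0.53. SNF7.2, the brightest member, had 9.83 and 9.97 in PB mRNA, against 9.47 and 9.51 in TOT mRNA, and missed the threshold (log2 difference of 0.41, adjusted p of 0.05445). The median was 0.42 with replicate 1 left out and 0.39 with replicate 2 left out. None of the 10 passed with spike-in scaling.

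Histone genes also had members on the high side. Of 8 genes, 7 at a level of at least 6, the 3 called were all histone H2B genes. The share higher was 3.71% over all probe sets and 22.4% in the shortest span class, where the list's median (1087 bp) lies. HTB1 had 9.83 and 9.98 in PB mRNA, against 9.19 and 9.30 in TOT mRNA (log2 difference of 0.66, adjusted p of 0.01319). HTB4, the brightest, had 11.14 and 11.31 in PB mRNA, against 10.68 and 10.73 in TOT mRNA (log2 difference of 0.52, adjusted p of 0.02708), and HTB11 had a difference of 0.61. The median was 0.41 at 22 °C and 0.78 at 38 °C. Histone genes of a class are near-identical, so signals of its copies cannot be told apart with certainty. The median was 0.46 without replicate 1 and 0.35 without replicate 2, and no histone gene passed with spike-in scaling.

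Smaller groups with members on the high side included enzymes of detoxification, calcium sensors and the ubiquitin pathway. Of 14 glutathione transferases, enzymes that couple glutathione to toxic compounds, 5 were higher and 0 lower, with a median of 0.23. The share of all probe sets that were higher was 3.71%, and among nuclear genes in the shortest class of genomic span, where the median span of this list (1244 bp) and that of the calmodulin-like genes (981 bp) lie, it was 22.4%. GSTU28 had 6.09 and 7.71 in PB mRNA, against 5.65 and 6.70 in TOT mRNA (log2 difference of 0.73, adjusted p of 0.01639), while GSTU20, the brightest, had a difference of 0.13 and did not pass (adjusted p of 0.5817). Of 7 calmodulin-like genes, CML30, CML42 and CML43 were higher, with log2 differences of 0.78, 0.77 and 0.61, and these are the 3 members at a level of at least 6. CML42 had 7.75 and 7.66 in PB mRNA, against 6.84 and 7.04 in TOT mRNA (adjusted p of 0.02732). Of 12 subunits of nuclear RNA polymerases, NRPB9B, NRPB6A and NRPB7 were higher and the median was 0.10. Of 13 ubiquitin-conjugating enzymes, PEX4, UBC29 and UBC20 were higher and 0 were lower, and in the span class of their median (1853 bp) 10.4% of genes were higher. PEX4, which acts on a receptor for peroxisomal import, had 10.04 and 9.96 in PB mRNA, against 9.41 and 9.28 in TOT mRNA (log2 difference of 0.66, adjusted p of 0.008772). Without replicate 1 the medians of the glutathione transferases, calmodulin-like genes, RNA polymerase subunits and ubiquitin-conjugating enzymes were 0.20, 0.32, 0.06 and 0.25. Without replicate 2 they were 0.37, 0.26, 0.22 and 0.23. With spike-in scaling 1 RNA polymerase subunit passed and no member of the other 3 lists did.

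In the respiratory chain the members went both ways. CYTC-2, a cytochrome c, had 9.44 and 9.80 in PB mRNA, against 8.56 and 9.39 in TOT mRNA (log2 difference of 0.65, adjusted p of 0.02311), and SDH2-2, the iron-sulphur subunit of succinate dehydrogenase, was higher by 0.49. SDH1-1, the flavoprotein subunit of the same enzyme, had 8.82 and 8.84 in PB mRNA, against 9.21 and 9.27 in TOT mRNA, and was lower, with a log2 difference of -0.41 (adjusted p of 0.04709).

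Few mRNAs of the bHLH, bZIP and WRKY transcription factors passed the test. Of 20 bHLH genes 15 were higher in both pairs, and of 17 bZIP genes 10 were, with medians of 0.16 and 0.12, against 7293 of all 22810 probe sets. Among the bHLH genes, UPB1, known from root growth and peroxidase control, was higher with 6.22 and 6.79 in PB mRNA, against 5.44 and 5.98 in TOT mRNA (log2 difference of 0.80, adjusted p of 0.01505). In the same family, bHLH104 was higher by 0.42 and bHLH121 was lower, with a difference of -0.48. Among the bZIP genes the unfolded protein response factor BZIP60 was higher (0.41, adjusted p of 0.0491) and BZIP53 was lower. BZIP53, whose mRNA is known to carry a conserved upstream open reading frame that lowers its translation when sucrose is high, had 9.64 and 8.77 in PB mRNA, against 10.03 and 9.62 in TOT mRNA (log2 difference of -0.62, adjusted p of 0.02188). Of the other 3 genes with such upstream reading frames, CPUORF47, annotated as a conserved peptide of this kind, was lower (-0.72, adjusted p of 0.02402), whereas bZIP44 and SAMDC, a polyamine synthesis enzyme, had differences of 0.06 and 0.07. SAMDC had 12.31 and 12.45 in PB mRNA, against 11.93 and 12.70 in TOT mRNA, with opposite signs in the 2 pairs. None of 7 WRKY genes passed, and their median was 0.01. With spike-in scaling no bHLH or bZIP gene passed, and the bHLH median was 0.14 without replicate 1 and without replicate 2.

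Groups with members on the low side included chaperones and secreted signals. Of 17 chaperones and co-chaperones, 3 were lower and 0 higher, with a median of -0.19, against 4.77% lower over all probe sets. With spike-in scaling none was lower, and the median was -0.25 without replicate 1 and -0.10 without replicate 2. The 3 lower genes were Cpn60beta2 and Cpn60beta4, of the plastid chaperonin, and ATERDJ2A, a J-domain protein of the endoplasmic reticulum. Their log2 differences were -0.60, -0.65 and -0.64. Cpn60beta2 had 9.55 and 9.22 in PB mRNA, against 10.03 and 9.93 in TOT mRNA (adjusted p of 0.01499). Of 32 secreted peptides, 5 were lower and 0 higher although the median of the list was 0.05. This count was not one-sided in every setting, with 4 lower and 2 higher among members at a level of at least 6. With spike-in scaling 1 was lower. The lowest was CLE41, which signals in vascular development, with 8.00 and 7.69 in PB mRNA, against 8.73 and 8.69 in TOT mRNA (log2 difference of -0.87, adjusted p of 0.003282). RALFL27 and RALFL32, of the RALF family of alkalinizing peptides, CLE27 and STOMAGEN, which promotes stomata, had differences between -0.78 and -0.52. In the tubulins, TUA6 was lower (log2 difference of -0.54, adjusted p of 0.01929) and TUB1 was higher (0.43, adjusted p of 0.04325).

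**Figure D4:**
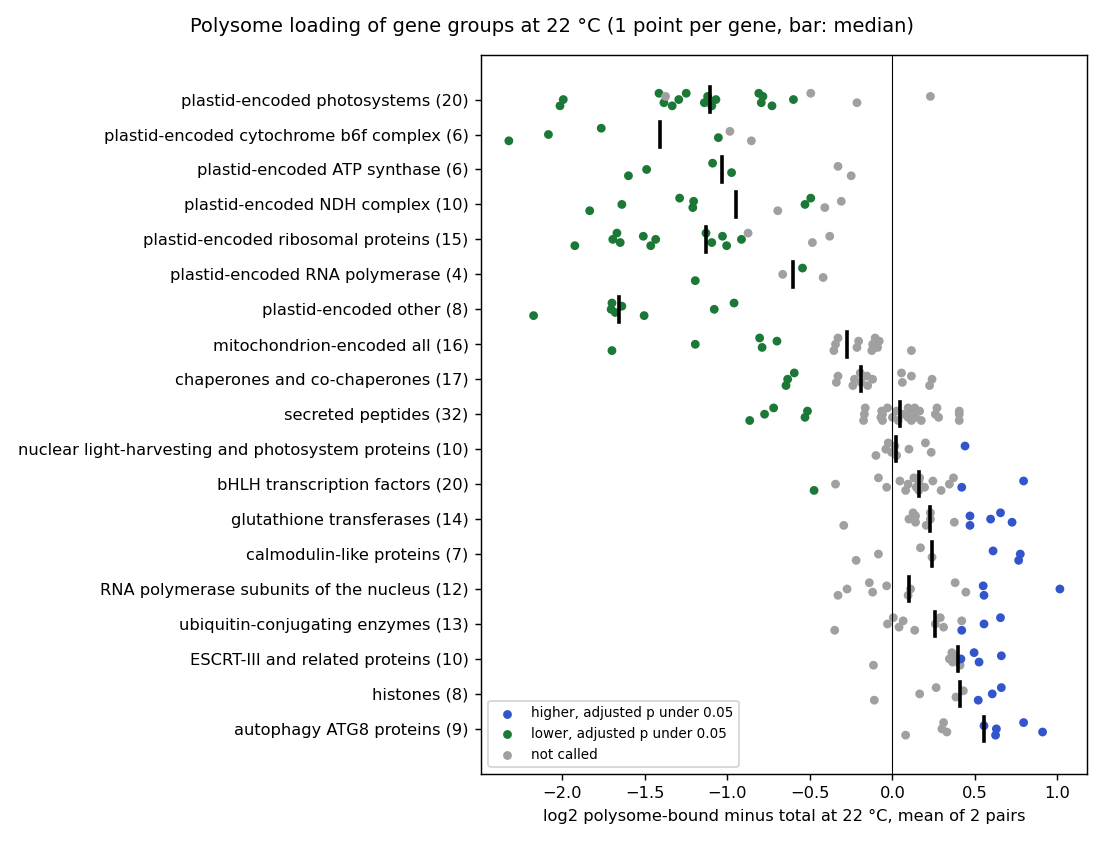
Log2 PB minus TOT at 22 °C (x axis, mean of 2 pairs) for gene groups (rows, with the number of genes), 1 point per gene, blue where higher and green where lower at an adjusted p under 0.05, with a bar at the median. The 7 plastid rows have medians between -1.66 and -0.60, and the ATG8 row has the highest median, 0.56.

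Loading was lower for longer genes. As no protein lengths were used, the genomic span from start to end was taken in their place, introns included. Among 6338 nuclear protein-coding genes at a level of at least 6, sorted into 8 classes of nearly equal size, the median log2 difference was 0.21 in the class from 304 to 1312 bp, 0.02 in the fourth class and -0.14 in the class from 3996 to 26499 bp. The gap between the shortest and the longest class was 0.35, and over genes of all levels it was 0.15. In the shortest class 22.4% of genes were higher and 7.18% lower at an adjusted p under 0.05. In the longest class 0.379% were higher and 8.46% lower. The trend in the medians was downward in both pairs, with 0.27 in the shortest and -0.09 in the longest class in replicate 1, and 0.16 and -0.19 in replicate 2. Across genes Spearman's rho with span was -0.35, and it lay between -0.35 and -0.31 within each of 4 classes of mRNA level. Genes share arrays and are no replicates, so this is a description.

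At 38 °C the shortest class had a median of 0.19, close to that at 22 °C, while the longest had 0.09, and rho was -0.07. The difference between the temperatures in this trend was not tested. Other measures moved with span or fraction at 22 °C. Short genes were brighter, with a median level of 7.96 in the shortest and 7.20 in the longest class. One of 2 pairs of control probe sets for the ends of an actin mRNA differed more in the PB arrays, where the value at the 5′ end minus that at the 3′ end was -1.91 and -2.23, than in the TOT arrays, where it was -1.59 and -1.77. For GAPDH the same measure was -1.22 and -1.20 in PB mRNA, against -1.03 and -0.80 in TOT mRNA. The other actin pair overlapped between the fractions, with -3.47 and -3.44 in PB mRNA, against -3.35 and -3.72 in TOT mRNA. Both ubiquitin pairs overlapped as well, and the second GAPDH pair had -0.07 and -0.04 in PB mRNA, against 0.02 and 0.21 in TOT mRNA. Their part in the trend was not tested. The ATG8 and ESCRT-III genes, with median spans of 1790 and 1905 bp, lie in the range of the third class, whose median was 0.10, and the histone genes, with a median span of 1087 bp, lie in that of the shortest.

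**Figure D5:**
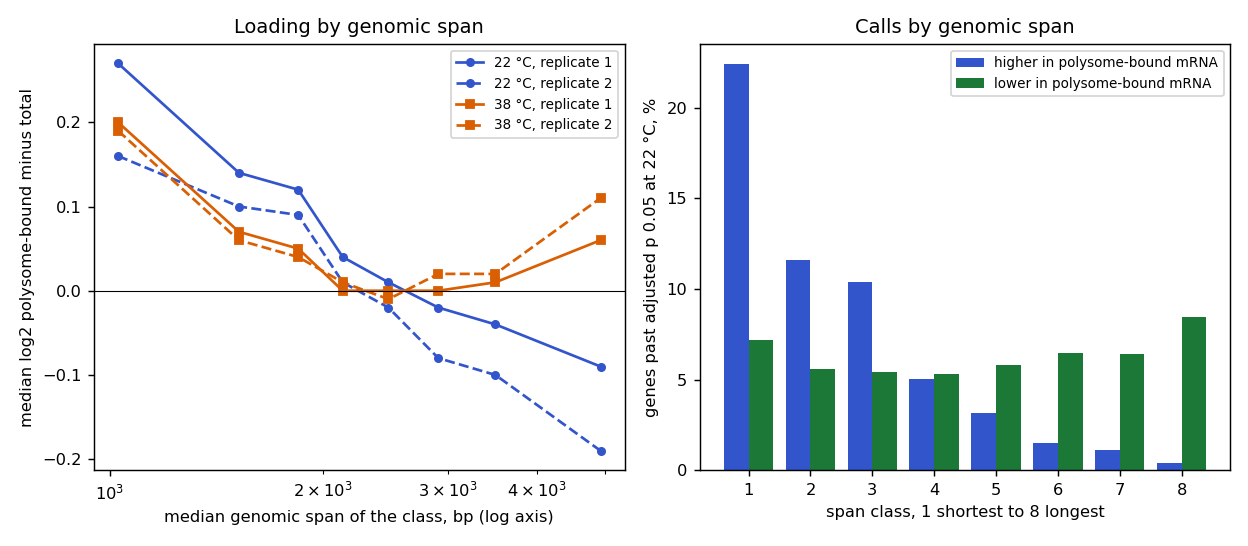
Left, median log2 PB minus TOT (y axis) in 8 classes of genomic span (x axis, log scale) for both pairs at 22 °C and at 38 °C; right, share of genes higher (blue) or lower (green) in PB mRNA at 22 °C at an adjusted p under 0.05, by class. The lines at 22 °C pass below 0 in the longer classes, where those at 38 °C run between -0.01 and 0.11.

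The loading at 22 °C was partly shared with that after heat, which was measured in separate seedlings. Across the 12230 probe sets at a level of at least 6 the mean differences at the 2 temperatures had an r of 0.56. Of the 846 probe sets higher at 22 °C, 735 were above 0 in both heat-stressed pairs and 44 were below 0 in both. Of the 1087 lower at 22 °C, 832 were below 0 in both heat-stressed pairs and 119 were above 0 in both. The heat-stressed pairs also entered the spread behind the calls, so these counts are not independent of them. The share of all probe sets with the same sign in both heat-stressed pairs is not given here. The loading differed between the temperatures at an adjusted p under 0.05 for 17 of the higher and 63 of the lower probe sets. Over all probe sets it differed for 311 (1.36%). Of the genes that the study followed one by one, AT5G02940 was lower in PB mRNA at 22 °C, with 7.99 and 7.26 in PB mRNA, against 8.78 and 8.12 in TOT mRNA (log2 difference of -0.83, adjusted p of 0.003025), and AT2G21580 was higher, with 10.26 and 10.22 in PB mRNA, against 9.69 and 9.86 in TOT mRNA (0.47, adjusted p of 0.0353). AT3G28900, GH3.3 and STZ had differences of 0.21, -0.23 and -0.32 and did not pass.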

How the data were processed

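The members and gene lists were chosen with earlier results of these data known, and 10 lists were added in this work after values were seen. The deposited tables hold log2 expression values, which the authors computed by RMA, and the submitters' processing notes list affy. By the methods, heat-stressed PB values were also scaled by a relative polysome content. It was divided out here and does not enter the difference at 22 °C. No column of sample values was left unused. The methods call the replicates biological, and having only 2 arrays per group limits the precision.

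PB minus TOT was estimated for every probe set by lmFit and eBayes of limma 3.58.1 (R 4.3.3) on all 8 arrays, with seedling sample as block, which leaves 2 residual degrees of freedom. P-values were adjusted by the Benjamini-Hochberg method across the 22810 probe sets. The call was an adjusted p under 0.05, alone or together with a 2-fold difference, the limit used in the study. The pairing rests on PB and TOT RNA sharing a seedling sample, and residuals of paired arrays correlated with r = 0.786 (22 °C) and r = 0.762 (38 °C).

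Gene names came from the platform annotation and a RefSeq table of assembly TAIR10.1. Of the probe sets, 13513 had 1 gene, 503 several and 8794 none listed, and 13436 of the 13513 matched the table, which also gave spans. Each list gene was counted by its brightest probe set. Lists with too few annotated genes, such as cytosolic ribosomal proteins, were not analysed here. Protein lengths were not used.

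The naming rule took probe sets of 1 gene with a level of at least 6 and the same sign in both pairs: the 15 largest called differences each way, up to 3 each way per list or else its brightest member, and genes the study followed. Chosen outside it, after their values were seen, were ATG8D, ATG8E, ATG8G, APG8A, VPS2.2, VPS46.2, VPS60.1, VPS60.2, HTB1, HTB11, GSTU22, GSTU28, CML30, CML43, NRPB6A, NRPB7, PEX4, UBC20, UBC29, UPB1, bHLH104, bHLH121, BZIP60, bZIP44, CPUORF47, CYTC-2, SDH1-1, SDH2-2, LHCB4.3, TUB1, ATERDJ2A, Cpn60beta4, the 5 secreted peptides, the plastid genes accD, atpB, atpE, ccsA, ndhI, psaA, psaB, rbcL, rpoA, rpoB and rpoC2, the mitochondrial genes ccb452 and cox2, and hemf2, HEME1, TPLATE, SEC10, COR27, phosphoribulokinase and sedoheptulose bisphosphatase. The fit was tested on simulated data. Alternatives changed the pairing, arrays, scaling, level filter, fold limit, moderation, probe sets per gene and samples included.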

Additional observations from a re-analysis of the deposited data

Results flagged for a closer look

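Some genes named by the rule differed in loading between 38 °C and 22 °C. The difference itself passed an adjusted p under 0.05 by limma for AT3G15357 (-0.22 at 38 °C and 0.95 at 22 °C, difference of -1.17 on the log2 scale), AT2G21580 (-0.87), AT3G28900 (-1.08), CHLM (-1.45), STZ (0.98), UBC28 (-0.97) and AT5G02940 (0.92). For ILR3 (-0.58), SEC5A (0.52), GH3.3 (0.86) and GI (0.62), both heat-stressed pairs went one way and both pairs at 22 °C the other, but the difference missed the threshold (adjusted p between 0.0593 and 0.1109). Without either heat-stressed seedling sample no probe set passed this test, with 3930 and 3008 at an unadjusted p under 0.05. The factor that the study put on heat-stressed PB arrays was taken out first, so the differences are relative to the array average.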

How the results depend on the processing

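The counts of probe sets higher and lower by at least 2-fold, 8 and 156, were 0 and 0 with no replicate block, with only the 4 arrays at 22 °C with or without the replicate block, and without either heat-stressed replicate. They were 0 and 55 by limma's treat against 1.5-fold, 846 and 1087 with no 2-fold limit, and 5 and 4 higher with a level of at least 6 and with 1 value per gene. Leaving out replicate 1 or 2 gave 13 and 26 higher, and 183 and 171 lower. Without the fold limit, scaling to the spike-in controls left 42 higher and 248 lower, the filter gave 1396 and 1471, and centring on medians gave 1183 and 968. The number of probe sets whose loading differed between the temperatures, 311, was 0 with no replicate block, 673 with centring on medians, 1467 with the filter and 15602 with spike-in scaling, and between 0 and 517 with a seedling sample left out. The spike-in controls averaged 5.98 and 6.14 on the heat-stressed PB arrays, against 7.10 and 6.73 on the heat-stressed TOT arrays, and 6.09 to 6.36 at 22 °C. The gap in median loading between the shortest and the longest span class, 0.35, was 0.33 with cyclic loess, 0.15 over all levels, and 0.35 and 0.36 with replicate 1 or 2 left out. Of 129 list genes past the adjusted threshold, none turned sign under any alternative, 110 of them being tested under the filter. This says little about stability. Only scaling, 1 value per gene and leaving out a replicate at 22 °C can change an estimate, so elsewhere the outcome was fixed. Leaving out a replicate only returns the sign of the other pair, which is close to the call itself. Of the genes taken by the naming rule, those that turned sign had not passed the threshold. With replicate 1 or 2 left out, SAMDC had -0.25 and 0.38, ZAP1 -0.01 and 0.03, CHLM 0.04 and -0.05, UGT88A1 -0.20 and 0.16, and LCR69 -0.27 and 0.13. CHLM had 0.03 with centring and 0.00 with spike-in scaling, and UGT88A1 0.02 with centring. The causes were not tested. With 2 pairs and no absolute scale, a loading near 0 says little about the share of an mRNA in polysomes.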

Other observations

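Other annotated groups were near the array average. Over all probe sets 4.77% were lower and 3.71% higher. Of 47 UGT glycosyltransferases 4 were lower and 1 was higher (median log2 difference of -0.08), of 28 expansins and xyloglucan enzymes 1 was lower and 1 higher (median 0.09), and of 14 SWEET sugar transporters none passed by limma (median -0.02). Among 11 genes of tetrapyrrole and chlorophyll synthesis hemf2 and HEME1, both of steps before chlorophyll, were lower, with differences of -0.92 and -0.52. Of 10 genes listed as exocyst and tethering subunits, SEC10 was lower, with a difference of -0.44. TPLATE, which the list took in although it is not an exocyst subunit, was also lower, with a difference of -0.64. The brightest members of further lists without a 2-fold call were not past the threshold: EXPA8 (0.22), CYP71B26 (-0.11), IAA18 (-0.07), PPR336 (-0.27), SWEET11 (-0.46) and CYTC-1 (0.37), while AGL26 was lower (-0.59).

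The replicates differed together in both fractions for some mRNAs. The clock-associated gene COR27 had 8.30 in replicate 1 and 3.42 in replicate 2 in PB mRNA, and 8.65 and 3.51 in TOT mRNA. GI had 8.91 and 7.67 in PB mRNA, and 9.19 and 7.85 in TOT mRNA. Their log2 loadings were -0.22 and -0.23, and neither passed the threshold.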
